A study of Mus musculus with 12 samples.

Results

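A reticulocyte is a young red blood cell that has lost its nucleus and still has to clear its mitochondria. It does so by mitophagy, the form of autophagy in which a double membrane closes around a mitochondrion and carries it to the lysosome. The 10 genes described here act along that route: the initiating kinase Ulk1, the membrane scaffold Becn1, the conjugating enzyme Atg7, the ATG8 proteins Map1lc3a, Map1lc3b, Gabarap and Gabarapl2, the mitochondrial receptor Bnip3l, the cargo adaptor Sqstm1 and the transcription factor Foxo3. Their probes were taken by gene symbol from the array annotation. The array carries 18 probes assigned to them alone among 45281 probes in all, and 9 of these probes, for 8 of the 10 genes, were bright enough to be tested beside 5498 tested probes for 3822 genes.

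The arrays compare whole blood of 3 Pik3cg-/- mice with that of 3 wild type (WT) mice. All 6 were females of 13 to 16 weeks, and the WT mice were C57BL/6J Jax. The Pik3cg-/- mice have no working copy, in any tissue, of the gene for the catalytic chain of PI3-kinase γ, a lipid kinase of blood cells. Their line, whose name also lists another strain, was crossed back to C57BL/6J Jax and then bred as a closed colony. Nothing describes the Pik3cg-/- mice as littermates of the WT mice. Any remaining DNA of the other strain cannot be told apart from the genotype. RNA of each mouse was measured on 2 Illumina MouseWG-6 arrays, which were averaged, and mice are called A, B and C within their group. A probe counted as detected on an array at a detection p under 0.01.

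Levels are log2 of the normalized bead signal, and differences are Pik3cg-/- minus WT. A probe was called changed when limma's p, adjusted by the Benjamini-Hochberg method over the 5498 tested probes, was under 0.05. By that rule 79 probes (1.44%) were higher and 71 (1.29%) were lower in Pik3cg-/- blood. None of the 9 member probes was called, and 1 of them, for Ulk1, had an unadjusted p under 0.05, as did 1157 of all tested probes. The median difference of the 9 probes was 0.05, against -0.02 over all tested probes. Whole blood pools several cell types, so fewer cells of a type and less RNA per cell cannot be told apart in any value that follows.

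The arrays of Pik3cg-/- mice detected 3558 to 5511 probes and those of WT mice 4648 to 4995. Both arrays of Pik3cg-/- mouse C lay at the low end, with 3558 and 3696 detected probes. The gene group was set beside 16 markers of reticulocytes and red cells. Of these, 6 were measured, and the 3 brightest were Hba-a1, an alpha globin gene, Alas2, the first enzyme of heme synthesis in red cells, and Slc4a1, the anion exchanger of the red cell membrane. Tfrc, the transferrin receptor that young red cells carry, and Epor, Klf1, Gata1, Rhag and Epb4.2 are on the array but had no tested probe. The markers therefore do not tell reticulocytes from older red cells, and the cell source of the member signals was not tested. The genotype could not be checked on the arrays, since of the Pik3cg probes ILMN_1227086 was above background on only 2 Pik3cg-/- and 2 WT arrays and ILMN_2564205 on none.

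The promoters shown next are those of Ulk1, the only tested member whose groups did not overlap, and Sqstm1, the tested member with the widest interval. Each run is the 250 bases before the RefSeq start of the gene in build GRCm38.p6, read on the minus strand at chr5:110810082-110810331 for Ulk1 and at chr11:50210821-50211070 for Sqstm1. Capitals mark the GC box GGGCGG or its complement on the other strand, CCGCCC, the core bound by SP family factors.
Ulk1: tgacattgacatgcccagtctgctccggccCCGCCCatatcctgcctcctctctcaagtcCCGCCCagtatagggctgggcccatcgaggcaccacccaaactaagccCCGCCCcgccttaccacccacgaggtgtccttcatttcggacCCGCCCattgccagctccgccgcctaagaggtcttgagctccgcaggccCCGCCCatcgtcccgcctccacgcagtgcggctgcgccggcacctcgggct
Sqstm1: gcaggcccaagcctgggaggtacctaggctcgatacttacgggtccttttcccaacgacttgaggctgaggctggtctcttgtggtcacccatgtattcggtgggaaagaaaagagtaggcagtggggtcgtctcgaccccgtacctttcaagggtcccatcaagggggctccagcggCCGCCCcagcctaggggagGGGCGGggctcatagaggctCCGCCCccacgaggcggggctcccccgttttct
The Ulk1 window holds 5 GC boxes and the Sqstm1 window 3, and 67.2% and 63.2% of their bases are G or C. Windows were found for 7 of the 10 members. Foxo3 also had 5 GC boxes, Gabarapl2 had 2 and Map1lc3b had 1, while the windows of Gabarap and Atg7 had none. A GC box was present in 32.7% of 32851 mouse promoter windows of the same length. Searched on both strands, the FOXO motif GTAAACA (in 3.17% of all windows), the GATA motif AGATAA (9.99%) and the antioxidant response element TGACNNNGC (10.2%) had no match in the 7 windows. The E-box CACGTG (6.02%) matched once, 132 bases before the start of Atg7. These matches describe letters in a window and were not compared with any binding data.

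Bnip3l, also called Nix, is the receptor in the outer mitochondrial membrane that ties mitochondria of maturing reticulocytes to the ATG8 proteins. Its probe ILMN_2716567 was detected on all 12 arrays. It read 15.83, 15.87 and 15.77 in Pik3cg-/- mice A, B and C, against 15.93, 15.79 and 15.92 in WT mice A, B and C. The groups overlapped and all 6 mice lay within a narrow band. Quantile normalization sets a level from the rank of a probe, and Bnip3l ranked near the top of every array. The first arrays of Pik3cg-/- mice A and B and WT mouse A all read 15.91, from bead signals of 63127, 50196 and 56886. The part of normalization in the narrow band was not tested. The means were 15.82 ± 0.05 in Pik3cg-/- mice and 15.88 ± 0.08 in WT mice (SD, n = 3 each), a difference of -0.06 (standard error 0.15, 95% interval -0.40 to 0.27, adjusted p = 0.848). On a linear scale that interval runs from 0.76 to 1.21 of the WT level. The sign of the difference depended on the scaling, since it was 0.15 when arrays were scaled to their 75th percentile.

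The Bnip3l signal stood close to the upper end of the arrays. Its background-subtracted bead signal was 50196 to 64697 on Pik3cg-/- arrays and 56332 to 65672 on WT arrays, while the brightest probe of an array read 70589 to 71433 on Pik3cg-/- arrays and 70669 to 71915 on WT arrays. Bnip3l thus reached 70.6 to 91.7% of the array's highest signal in Pik3cg-/- mice and 78.7 to 92.9% in WT mice, with 25 to 34 probes above it. Whether the response was still linear at that height was not tested.

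**Figure D1:**
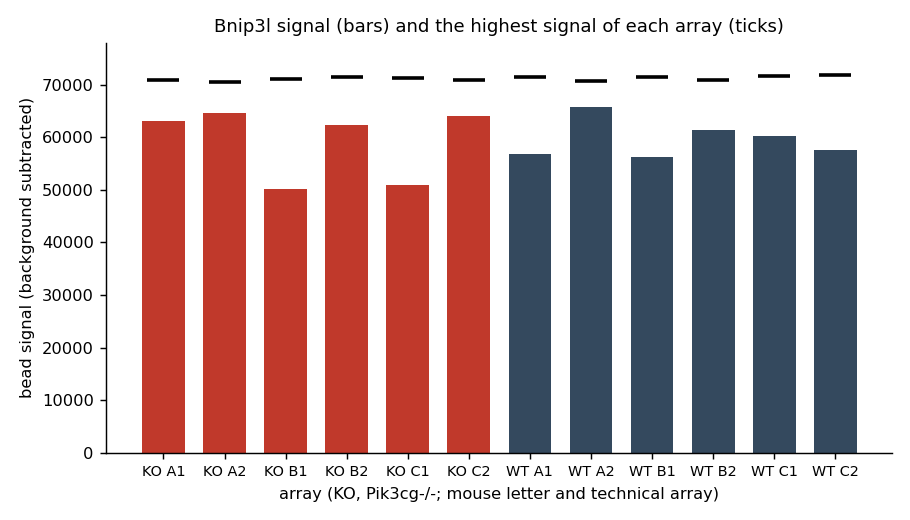
Background-subtracted bead signal of the Bnip3l probe on each of the 12 arrays (bars; Pik3cg-/- arrays in red on the left, WT arrays in blue on the right) and the highest signal of any probe on the same array (black ticks). Bnip3l lies between 50196 and 64697 on Pik3cg-/- arrays and between 56332 and 65672 on WT arrays, below a top of about the same height on every array.

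Ulk1 encodes the kinase that starts autophagosome formation and that reticulocytes use when they clear mitochondria. Its probe ILMN_1228475, detected on all 12 arrays, read 10.20, 10.40 and 10.45 in Pik3cg-/- mice A, B and C, against 9.87, 9.65 and 9.89 in WT mice A, B and C. Every Pik3cg-/- mouse was above every WT mouse, which held for no other tested member probe and for 13.4% of all tested probes (14.4% had every Pik3cg-/- mouse below every WT mouse). The means were 10.35 ± 0.14 in Pik3cg-/- mice and 9.80 ± 0.13 in WT mice (SD, n = 3 each).

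The Ulk1 difference was 0.55 (standard error 0.16, 95% interval 0.18 to 0.91), or 1.46-fold. Its unadjusted limma p was 0.00872 and ranked 418 among the tested probes, and its adjusted p of 0.114 missed the threshold. It was 0.82 from the first technical array of each mouse and 0.27 from the second (adjusted p = 0.111 and 0.477 from limma). The 2 arrays differed by 0.70, 0.38 and 0.55 in Pik3cg-/- mice A, B and C, with the first array higher in each. In WT mice A, B and C they differed by 0.26, 0.35 and 0.09, with the first array higher in A and C. On the deposited log2 values the Ulk1 difference was 0.45 with an adjusted p of 0.0437 from limma, the only setting under which a member passed. The other Ulk1 probe, ILMN_2506115, was detected on none of the 12 arrays and gives no fold.

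Foxo3 encodes a transcription factor that is active in maturing red cells and switches on autophagy and antioxidant genes. Its brightest probe, ILMN_2501865, was detected on 2 of 6 Pik3cg-/- arrays and 3 of 6 WT arrays. It read 7.21, 6.23 and 6.90 in Pik3cg-/- mice A, B and C, against 6.95, 7.44 and 6.84 in WT mice A, B and C. The groups overlapped, and the difference was -0.30 (standard error 0.28, 95% interval -0.93 to 0.33, adjusted p = 0.577). The 2 arrays of Pik3cg-/- mouse C differed by 1.54 at this probe. Probes ILMN_2690574 and ILMN_2439078 of Foxo3 were not detected on any array.

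Becn1 encodes Beclin-1, the scaffold of the class III PI3K complex that marks the membrane where an autophagosome forms. Probe ILMN_3090581 was detected on all 12 arrays and read 8.62, 8.76 and 9.25 in Pik3cg-/- mice A, B and C, against 8.39, 8.68 and 8.42 in WT mice A, B and C. Only mouse A of the Pik3cg-/- group lay within the WT range. The difference was 0.38 (standard error 0.20, 95% interval -0.09 to 0.84, adjusted p = 0.323), and without Pik3cg-/- mouse C it was 0.19. Probes ILMN_3018758 and ILMN_2489136 were not detected on any array, and 1 more probe that the annotation shares between Becn1 and Cntd1 was left out.

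Sqstm1 encodes p62, an adaptor that binds ubiquitin-tagged cargo and ATG8 proteins and is itself consumed by autophagy. Its probe ILMN_2710705 read 7.39, 8.35 and 9.13 in Pik3cg-/- mice A, B and C, against 7.42, 8.01 and 7.42 in WT mice A, B and C. Pik3cg-/- mice B and C were above all WT mice and mouse A was below them, so the groups overlapped with the full WT range inside the Pik3cg-/- range. The means were 8.29 ± 0.87 in Pik3cg-/- mice and 7.61 ± 0.34 in WT mice (SD, n = 3 each).

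The Sqstm1 difference was 0.67 (standard error 0.40, 95% interval -0.23 to 1.58, adjusted p = 0.365), the largest among the 9 tested probes and also the least precise. It was 1.12 without Pik3cg-/- mouse A (adjusted p = 0.0524 from limma) and 0.25 without Pik3cg-/- mouse C (adjusted p = 0.704). The 2 arrays of a Pik3cg-/- mouse differed by only 0.05 to 0.42, less than the mice did. Pik3cg-/- mouse C, where Sqstm1 read highest, is the mouse whose arrays detected the fewest probes, and the part of that in the value was not tested.

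The ATG8 proteins are small ubiquitin-like proteins that are attached to the growing membrane and hold receptors such as Bnip3l. Map1lc3b probe ILMN_1260033 read 8.32, 8.39 and 8.72 in Pik3cg-/- mice A, B and C, against 8.84, 8.71 and 8.77 in WT mice A, B and C. Mice A and B of the Pik3cg-/- group were below all WT mice and mouse C was within the WT range. The difference was -0.30 (standard error 0.17, 95% interval -0.68 to 0.09, adjusted p = 0.344). It was -0.64 from the first technical arrays and 0.04 from the second.

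Gabarap probe ILMN_1251333 read 11.81, 12.10 and 12.48 in Pik3cg-/- mice A, B and C, against 12.32, 12.20 and 11.74 in WT mice A, B and C. The groups covered nearly the same range, with a difference of 0.05 (standard error 0.23, 95% interval -0.48 to 0.57, adjusted p = 0.933). It turned to -0.13 without Pik3cg-/- mouse C.

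Gabarapl2, also called GATE-16, had 2 tested probes. Probe ILMN_2642197 read 8.36, 8.27 and 9.06 in Pik3cg-/- mice A, B and C, against 8.28, 8.54 and 8.14 in WT mice A, B and C. Mouse C of the Pik3cg-/- group stood above the other 5 mice, which overlapped. The difference was 0.25 (standard error 0.24, 95% interval -0.30 to 0.79, adjusted p = 0.590), and without that mouse it was -0.003. The 2 arrays of that mouse differed by 1.29. Probe ILMN_1219431, detected on 3 of 6 arrays in each group, read 7.31, 6.83 and 7.23 in Pik3cg-/- mice A, B and C, against 7.05, 7.17 and 7.14 in WT mice A, B and C, a difference of -0.001 (standard error 0.18). Neither probe separated the groups, and probe ILMN_2586205 was not detected on any array.

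Map1lc3a and Atg7 had no tested probe. Map1lc3a, the other LC3 gene, was detected by probe ILMN_2832682 on 2 of 6 WT arrays and on no Pik3cg-/- array, and by ILMN_2686183 on no array. Atg7 encodes the E1-like enzyme that activates ATG8 proteins for conjugation. Its only probe, ILMN_1246724, was not well above background on any of the 12 arrays, where it read 5.99, 5.96 and 5.81 in Pik3cg-/- mice A, B and C, against 6.60, 6.35 and 6.39 in WT mice A, B and C. No fold is given for probes that were undetected in both groups.

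**Figure D2:**
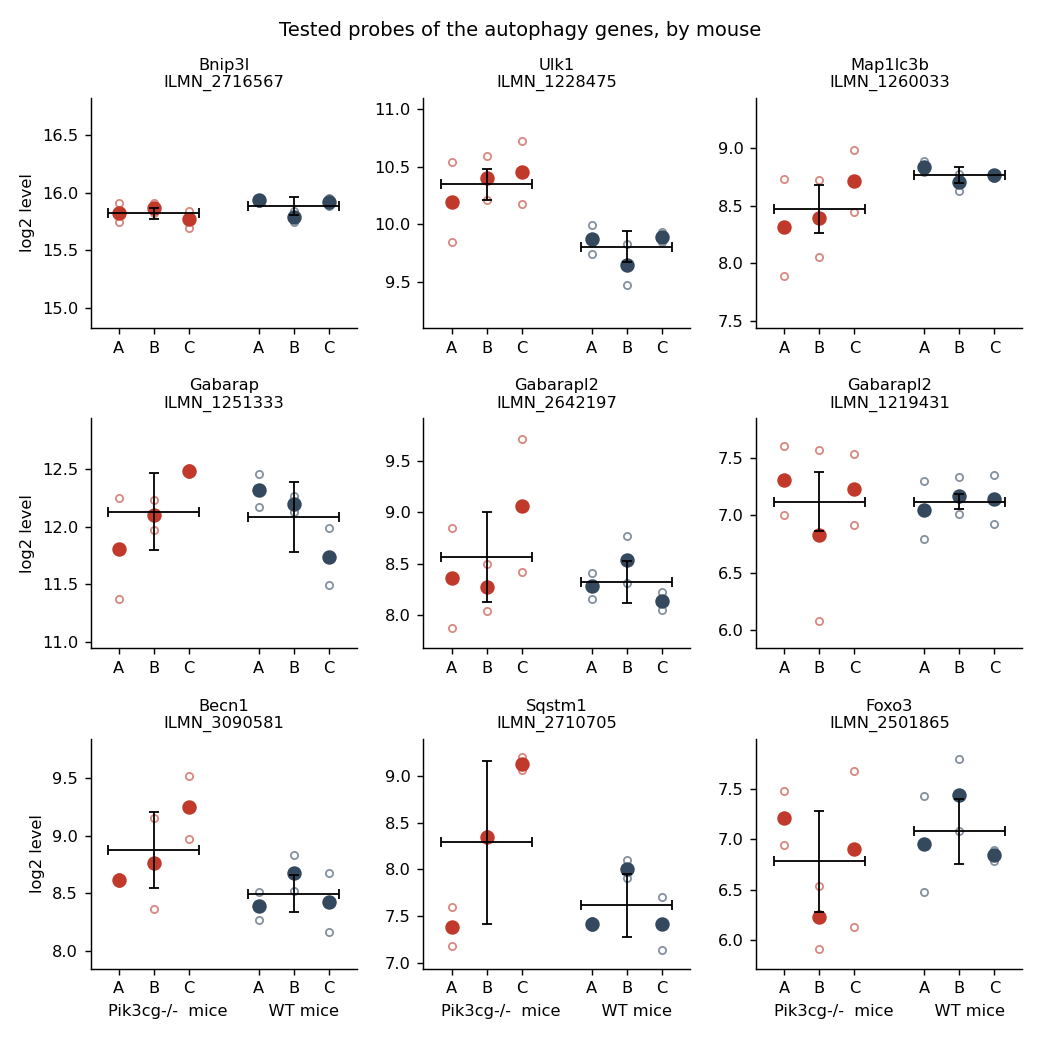
Log2 levels of the 9 tested probes in each mouse, with Pik3cg-/- mice (red) left of WT mice (blue) in every panel; filled points are mouse means, open points the 2 technical arrays, and bars the group mean with its SD (n = 3 mice). Ulk1 shows all Pik3cg-/- mice above all WT mice, Bnip3l shows 6 mice within a narrow band, and Sqstm1 shows Pik3cg-/- mice from 7.39 to 9.13 around WT mice from 7.42 to 8.01.

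**Figure D3:**
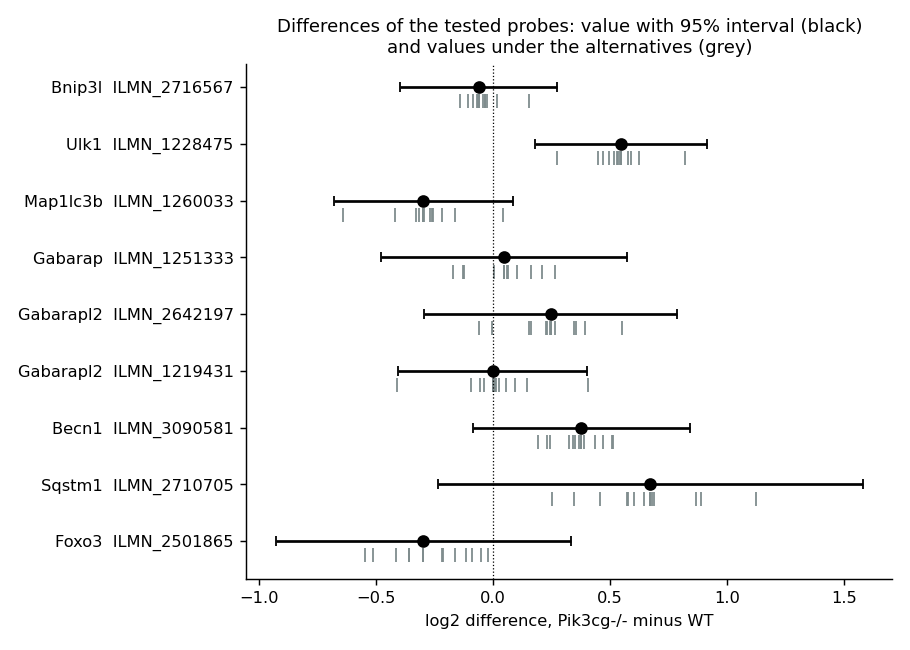
Log2 difference, Pik3cg-/- minus WT, of the 9 tested probes with 95% interval (black), and its values under the alternative settings (grey ticks). The interval lies above 0 for Ulk1 alone, and Ulk1, Becn1 and Sqstm1 kept a positive difference, and Foxo3 a negative one, under every alternative that could be run.

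The spread between mice and between repeat arrays is given here with that of all probes. The SD was larger in Pik3cg-/- mice than in WT mice at 8 of the 9 tested probes, and at 71.1% of all tested probes. The largest difference between the 2 arrays of a mouse fell in a Pik3cg-/- mouse at 8 of the 9 probes, and at 62.5% of all tested probes. The members were not tested against the other probes in this. The median difference between repeat arrays over the 9 probes was 0.60, 0.46 and 0.55 in Pik3cg-/- mice A, B and C, against 0.24, 0.31 and 0.18 in WT mice A, B and C. Over all tested probes these medians were 0.24 to 0.25 in Pik3cg-/- mice and 0.20 in WT mice.

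Pik3cg-/- mouse C was the highest of the 3 Pik3cg-/- mice at 6 of the 9 probes, namely Ulk1, Map1lc3b, Gabarap, Gabarapl2 (ILMN_2642197), Becn1 and Sqstm1. The median deviation from the WT mean over the 9 probes was 0.04, -0.01 and 0.40 in Pik3cg-/- mice A, B and C. Over all tested probes it was 0.06, -0.02 and -0.12 in the same mice. The low number of detected probes in mouse C moved with this pattern, and its part in it was not tested.

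Levels of markers of the blood cell types were read from the same fit. The 6 measured reticulocyte and red cell markers had a median difference of 0.13 with none called. Every Pik3cg-/- mouse was above every WT mouse for 2 of them, Slc4a1 (0.19, adjusted p = 0.517) and Ank1, an ankyrin of the membrane skeleton (0.88, adjusted p = 0.0925), which is named here after its values were seen. For the 6 markers the median deviation from the WT mean was 0.12, 0.03 and 0.13 in Pik3cg-/- mice A, B and C. The summed linear level of these 6 probes was 235005 to 241630 in Pik3cg-/- mice and 221700 to 237867 in WT mice, a sum made up mostly of Hba-a1 and Alas2, which lay, like Bnip3l, near the top of the arrays. The 10 platelet markers were all measured and none was called. They had a median difference of -1.43, 8 of them had every Pik3cg-/- mouse below every WT mouse, and their summed linear level was 14374 to 43013 in Pik3cg-/- mice and 50608 to 73371 in WT mice. Over all tested probes, every Pik3cg-/- mouse was above every WT mouse for 13.4% and below for 14.4%.

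The platelet markers deviated most in Pik3cg-/- mouse A, by -2.76 at the median, against -0.88 in mouse B and -0.67 in mouse C. Of the 9 tested member probes, Sqstm1 and Map1lc3b read lowest of the 6 mice in Pik3cg-/- mouse A, at 7.39 and 8.32. Gabarapl2 probe ILMN_1219431 read highest of the 6 in that mouse, at 7.31, and every other tested member probe lay between. The part of platelet RNA in the autophagy genes was not tested. The median differences of the measured markers were 0.10 for 7 of 9 neutrophil genes, -0.50 for 5 of 8 monocyte genes, -0.20 for 3 of 6 B cell genes, 0.22 for 3 of 7 T cell genes and 0.17 for 3 of 6 NK cell genes, with none called in any list. Among the neutrophil genes, every Pik3cg-/- mouse was above every WT mouse for Retnlg (0.52), Csf3r (0.55) and Cxcr2 (0.34) and below for S100a8 (-0.66), of which Csf3r and Cxcr2 are named after their values were seen. The groups overlapped for S100a9 (-0.42), Camp (-0.31) and Mmp9 (0.10), so the list had 4 positive and 3 negative differences. Of all tested probes, 13.4% were above and 14.4% below without overlap. Among the monocyte genes, every Pik3cg-/- mouse was below every WT mouse for Lyz2 alone (-0.89, adjusted p = 0.0821).

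**Figure D4:**
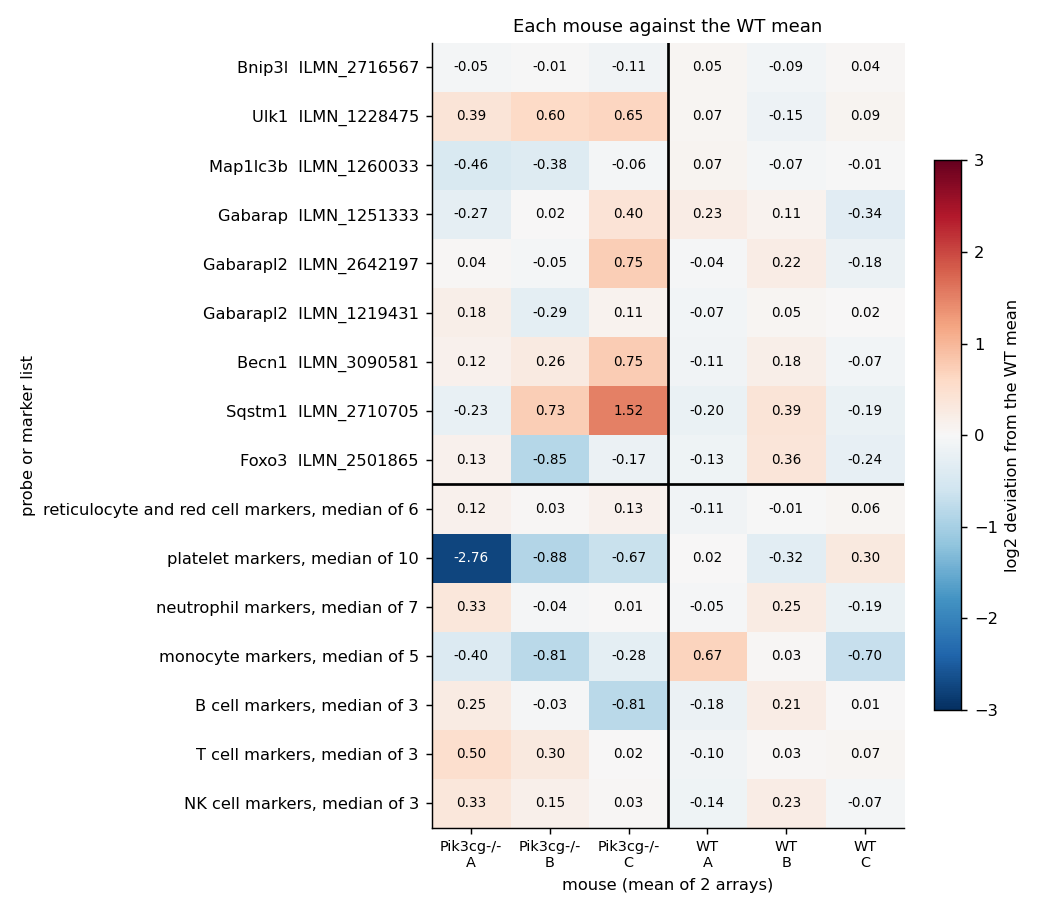
Log2 deviation of each mouse from the WT mean (colour and printed value) for the 9 tested probes above the line and for the median of each marker list below it, with Pik3cg-/- mice in the 3 left columns and WT mice in the 3 right columns. Ulk1 is above the WT mean in all 3 Pik3cg-/- mice, Sqstm1 runs from -0.23 to 1.52 among them, and the platelet markers are lowest in Pik3cg-/- mouse A.

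The members sit in a wider pathway, and 75 other autophagy genes in 9 groups were read from the same fit. The array carries 70 of them and 36 had a tested probe, each represented by its brightest one. Of these 36, 1 was higher, none was lower and 35 did not pass, where 1.44% of all tested probes were higher and 1.29% lower. An unadjusted p under 0.05 was found for 11 of the 36 (30.6%), against 21.0% of all tested probes. Every Pik3cg-/- mouse was above every WT mouse for 6 of them and below for 5, where the shares of all tested probes are 13.4% and 14.4%. Both the 11 and the 6 include Mlst8, which was detected on Pik3cg-/- arrays alone and so tested only through that group. The median difference was -0.01, against -0.02 over all tested probes.

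The gene that passed was Tsc1, which encodes hamartin, part of the complex that holds back mTORC1, the kinase complex that in turn inhibits ULK1. Probe ILMN_1225372 read 9.91, 9.98 and 10.09 in Pik3cg-/- mice A, B and C, against 9.18, 9.15 and 9.31 in WT mice A, B and C, with no overlap. The difference was 0.78 (standard error 0.15, adjusted p = 0.0345). It stayed between 0.59 and 0.94 under every alternative, but its adjusted p from limma reached 0.0852 with 12 arrays and the mouse as a random block, and 0.0994 and 0.203 on the first and the second technical arrays alone. Of the 6 fits that leave out 1 mouse, only that without Pik3cg-/- mouse A kept it under the threshold (adjusted p = 0.0267), and the others gave 0.0521 to 0.159. Tsc2, its partner in the complex, differed by -0.17 and Rheb, the GTPase that the complex inactivates, by -0.07 (adjusted p = 0.684 and 0.836). Mlst8, an mTORC1 subunit, was the other gene of this group with no overlap, and it is named here after its values were seen. It was detected on 3 Pik3cg-/- arrays and on no WT array, so it was tested only because of the group in which it read higher, and its lack of overlap supports nothing. The bound was at least 1.09-fold higher in Pik3cg-/- mice, with each WT array set to no less than the lowest level of a detected probe. The limma adjusted p of 0.146 is that of the fitted difference, not of the bound.

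Among partners of Ulk1, only Atg101, a subunit of the ULK1 complex, had a tested probe of the 4 listed. It read 7.53, 7.76 and 7.60 in Pik3cg-/- mice A, B and C, against 7.16, 7.17 and 6.77 in WT mice A, B and C, a difference of 0.60 (standard error 0.17, adjusted p = 0.111). The groups did not overlap, as for Ulk1, and neither probe passed. The Atg101 probe was detected on 5 of 6 Pik3cg-/- and 4 of 6 WT arrays, and the Ulk1 probe on all 6 arrays of each group. Ulk2, Atg13 and Rb1cc1, which encodes FIP200, are on the array with no tested probe.

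The partners of Becn1 gave 4 measured genes of 8. The brightest were Uvrag, which joins Beclin-1 in a later-acting complex (-0.36, adjusted p = 0.320), Bcl2, which binds and restrains Beclin-1 (0.47, adjusted p = 0.320), and Pik3c3, the lipid kinase VPS34 itself (-0.28, adjusted p = 0.666). Among genes of ATG9, ATG2 and the WIPI proteins, which feed and mark the growing membrane, 5 of 8 were measured. Wipi1 differed by 0.41, Atg2a by 0.17 and Wdr45 by -0.25, with adjusted p of 0.374 to 0.666. A second Atg2a probe, ILMN_1213779, was detected on 4 Pik3cg-/- arrays and on no WT array, so it too was tested only through the group in which it read higher. Its bound was at least 1.42-fold higher in Pik3cg-/- mice. The limma adjusted p of 0.0640 is that of the fitted difference, not of the bound, and given that selection it supports nothing.

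The enzymes that conjugate and cut ATG8 proteins gave 4 measured genes of 10. Atg12, a ubiquitin-like protein of the conjugation complex, read 10.52, 10.41 and 10.62 in Pik3cg-/- mice, against 10.01, 10.40 and 10.38 in WT mice, a difference of 0.25 (adjusted p = 0.434) in groups that did not overlap. Atg3, the enzyme that passes ATG8 proteins to lipid, differed by -0.29 (adjusted p = 0.346). Atg16l1, the subunit that directs conjugation to the membrane, had 2 tested probes. The brighter, ILMN_1229870, was detected on all arrays and differed by 0.67 (adjusted p = 0.0669) without overlap. The dimmer, ILMN_2620574, was detected on 1 Pik3cg-/- array and 5 WT arrays, so its Pik3cg-/- levels lay almost wholly at background, and its fitted difference was -0.48 (adjusted p = 0.157). Of the 8 genes with more than 1 tested probe, Atg16l1 and Vamp8 had probes on both sides of 0.

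Of 6 other ATG8 and cargo receptor genes 2 were measured. Tax1bp1, a ubiquitin-binding receptor like p62, read 12.94, 12.95 and 13.13 in Pik3cg-/- mice A, B and C, against 12.89, 12.90 and 12.96 in WT mice A, B and C, a difference of 0.09 (adjusted p = 0.771). Gabarapl1 read 6.18, 8.01 and 8.37 in Pik3cg-/- mice A, B and C, against 8.32, 8.0 and 8.41 in WT mice A, B and C (difference -0.72, adjusted p = 0.442). Its probe was detected on 4 of 6 Pik3cg-/- arrays and 6 of 6 WT arrays. Pik3cg-/- mouse A, which had the lowest platelet markers, stood apart at this gene and the other 5 mice lay together. The 6.18 of mouse A is as low as levels of the undetected Atg7 probe (5.81 to 6.60), so the difference rests on a value near background. A link to platelet RNA was not tested.

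Other mitophagy genes gave 9 measured of 15, and none passed the call. Fis1, an outer membrane protein that recruits fission factors, read 12.35, 11.84 and 12.89 in Pik3cg-/- mice A, B and C, against 11.78, 11.45 and 11.41 in WT mice A, B and C, with no overlap and a difference of 0.82 (standard error 0.26, adjusted p = 0.137). Its second probe, ILMN_2939294, differed by 0.78. Mff, the receptor of the fission GTPase, differed by 0.62 and 0.80 at its 2 probes (adjusted p = 0.166 and 0.0970). Fkbp8, an outer membrane protein that binds LC3, differed by -0.01.

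Below 0 without overlap, and named after their values were seen, were Vdac1, the main channel of the outer membrane (-0.70, adjusted p = 0.100), Mfn2, a fusion GTPase (-0.57, adjusted p = 0.134), and Fundc1, a mitophagy receptor (-0.47, adjusted p = 0.163). These Mfn2 and Fundc1 probes were detected on 4 and 5 of 6 Pik3cg-/- arrays, and both on 6 of 6 WT arrays. Another Fundc1 probe, ILMN_2958016, was detected on 5 WT arrays and on no Pik3cg-/- array. It was thus tested only through the group in which it read higher, and it supports nothing. Its bound was at least 1.025-fold lower in Pik3cg-/- mice. Bnip3, the closest relative of Bnip3l, is on the array with no tested probe. The 9 genes thus fell on both sides of 0, with 5 positive and 4 negative differences and a median of 0.04.

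Of the genes for fusion with lysosomes 6 of 10 were measured. Lamp1, an abundant glycoprotein of the lysosomal membrane, read 8.97, 9.23 and 9.35 in Pik3cg-/- mice A, B and C, against 10.02, 9.79 and 10.27 in WT mice A, B and C, a difference of -0.84 (standard error 0.19, adjusted p = 0.0537). The groups did not overlap. Rab7, the late endosome GTPase, differed by -0.05 and Plekhm1, its effector at the lysosome, by 0.06 (adjusted p = 0.885 and 0.883). Of 6 FOXO and TFEB family genes only Foxo1 was measured, with a difference of -0.07 (adjusted p = 0.881).

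**Figure D5:**
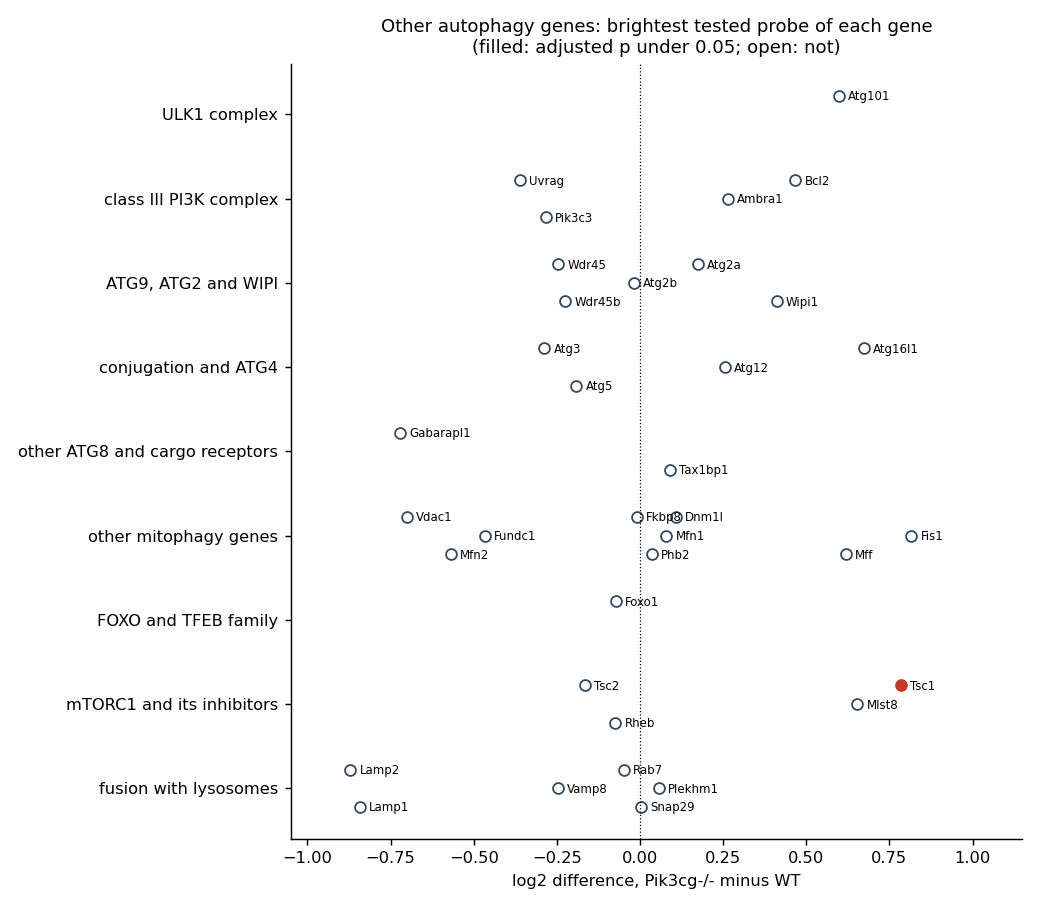
Log2 difference, Pik3cg-/- minus WT, of the 36 other autophagy genes with a tested probe, by group, each at its brightest tested probe; the filled red point passed the adjusted p of 0.05 and open points did not. Tsc1 is the filled point at 0.78, Lamp1 and Lamp2 are the lowest, and Mlst8 is drawn at its fitted difference although it was undetected on all WT arrays. The Lamp2 probe drawn was detected on 3 of 6 Pik3cg-/- arrays, and the 5 tested Lamp2 probes differed by -0.88 to -0.03. Lamp2 probes ILMN_2605666 and ILMN_2508945 were detected on no Pik3cg-/- array and so were tested only through WT arrays.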

How the data were processed

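Whole blood RNA of 3 Pik3cg-/- and 3 WT mice was hybridized to 12 Illumina MouseWG-6 arrays, 2 technical arrays per mouse. The deposited intensity values are bead signals averaged per probe; many are negative, so background had been subtracted, and arrays had not been scaled to each other. The authors deposited a detection p-value beside each signal. Their deposited log2 values were variance stabilized and quantile normalized in lumi, whose version no source used here gives, and served as an alternative.

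Background correction and quantile normalization used neqc of limma 3.58.1 (R 4.3.3) with an offset of 16. Probes were tested if their detection p was under 0.01 on 3 or more of the 12 arrays. Arrays were averaged per mouse, and lmFit and eBayes were run on the 6 mouse means with Benjamini-Hochberg adjustment over 5498 probes. The precision is limited by 3 mice per group, since the 2 arrays of a mouse are technical repeats. An exact permutation of 3 mice against 3 could not reach a two-sided p below 0.1.

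Probes were named from the platform annotation: 4615 tested probes have 1 gene symbol, 2 have several and 881 have none. Members and gene lists were chosen with earlier results of these data known. Named are every member with every probe and, from the autophagy lists and the red cell markers, the genes that passed the call and the 3 brightest. From the neutrophil list all measured genes are named and from the monocyte list the gene without overlap. From the platelet, B cell, T cell and NK cell lists none is named. Others are said to be named after their values were seen, and this holds for Lamp2, Vamp8, Camp and Mmp9 too. Promoters are RefSeq windows of GRCm38.p6; Bnip3l, Map1lc3a and Becn1 had no entry. The limma step was tested on simulated data with 200 changed probes. Plots were made with matplotlib 3.10.9 in Python 3.11.15.

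Alternatives were the deposited log2 values, an offset raised to 50, cyclic loess or 75th percentile scaling in place of quantiles, no filter, detection on 6 or more arrays, the first or second technical array alone, a 12-array fit with mice as a random block, analysis of variance, a replicate block, and each mouse left out in turn. The analysis of variance used the neqc mouse means and the Benjamini-Hochberg adjustment. The authors ran theirs on lumi values and chose genes by fold change.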

Additional observations from a re-analysis of the deposited data

How the results depend on the processing

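No member probe was called under 16 of 17 alternatives; on the deposited log2 values 1 was, Ulk1. Of 152 differences of member probes under the alternatives, 136 kept their sign and 16 did not. Bnip3l turned to 0.155 with 75th percentile scaling and 0.0191 on technical array 1. Map1lc3b turned to 0.0445 on technical array 2. Gabarap was -0.169 on technical array 1, and -0.128 to 0.209 when 1 mouse was left out. Gabarapl2 ILMN_2642197 was -0.0602 on technical array 1, and -0.00282 to 0.394 with 1 mouse left out. Gabarapl2 ILMN_1219431 was 0.00942 on the deposited values, 0.0134 with an offset of 50, 0.0556 with cyclic loess, 0.0943 with 75th percentile scaling and 0.406 on technical array 2, and -0.0941 to 0.146 with 1 mouse left out. Foxo3 was not tested when detection on 6 arrays was required. With 1 mouse left out, differences ran from -0.11 to -0.03 for Bnip3l, 0.47 to 0.62 for Ulk1, -0.42 to -0.22 for Map1lc3b, 0.19 to 0.51 for Becn1, 0.25 to 1.12 for Sqstm1 and -0.51 to -0.02 for Foxo3; the arm with 2 mice is then assumed to vary like the other. The cause of these turns was not tested.

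The 150 called probes among all tested became 257 with 75th percentile scaling, 86 without a filter and 83 on technical array 1. They became 471 with 12 arrays and the mouse as a random block. Analysis of variance of the neqc mouse means, with adjusted p, left 4 called probes. With 1 mouse left out they ran from 40 to 344: 344 without Pik3cg-/- mouse A, 46 without Pik3cg-/- mouse B, and 41, 40 and 43 without WT mouse A, B and C. Whether the letters pair the mice was not settled. Deviations of same-lettered mice correlated at 0.18 for A, -0.18 for B and 0.18 for C. Pik3cg-/- mice A and C correlated best with their own letter, and mouse B with WT mouse C (0.21). Deviations within a group cancel, so these values are not independent and cannot decide on a pairing. A fit with the letter as a replicate block called 111 probes and no member, and gave Tsc1 an adjusted p of 0.0687. The analysis of variance gave Tsc1 an adjusted p of 0.0784. The slide as a block was not run, since no source used here names the arrays' slides. Partial detection limits Foxo3 and Gabarapl2 ILMN_1219431, and signal near the upper end of the arrays limits Bnip3l.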
